A study of Sus scrofa with 12 samples.

Results

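The genes described here are 10 members of the Hippo pathway and its output: the YAP target genes CCN1, CCN2, ANKRD1 and AXL, the feedback genes AMOTL2 and LATS2, and the pathway components AJUBA, LATS1, YAP1 and TEAD1. They were chosen by symbol, and the 10 genes were found among the 24358 genes of the RNA sequencing tables. The cells were pericyte-derived pig induced pluripotent stem cells (PC-iPS cells), and each of 4 groups had 3 libraries. WT PC-iPS cells carried no reporter. Knock-in positive cells carried tdTomato at NANOG and had been selected with drugs and sorted for fluorescence. The study states that its cultures came from mixed transformed cells, so the cells of a culture may differ in their insertions. WT and knock-in positive cells were kept in LCDMV medium, which holds LIF, CHIR99021, dimethindene maleate, minocycline and vitamin C. The Activin A group and the SB431542 group were knock-in positive cells in the same medium without LIF, with either the cytokine Activin A or SB431542, an inhibitor of the Activin and TGF-β type I receptors. The labels give no dose or time for these libraries, and an untreated group in that medium was not analysed here. The study's methods describe a depletion of feeder cells, which were left to attach for a short time before RNA was taken from the suspended cells. They do not name the groups that this step covered.

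In the Hippo pathway, the kinases MST1 and MST2 activate LATS1 and LATS2, which phosphorylate YAP1 and its relative TAZ and so keep them out of the nucleus. Unphosphorylated YAP1 enters the nucleus, binds TEAD factors and switches on targets such as CCN1 and CCN2, as well as genes that feed back on the pathway, such as LATS2 and AMOTL2. In early mammalian embryos the pathway separates outer cells, where nuclear YAP1 and TEAD4 favour trophectoderm, from inner cells, which become pluripotent.

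Expression was given as FPKM, a measure scaled to the length of each gene and the mapped reads of each library, so levels can be set beside each other between genes. Fold changes are differences in log2(FPKM + 1), which understate the change of weakly expressed genes. A gene was called when its absolute log2 fold change was at least 1 and its adjusted p in limma was at most 0.05, with adjustment over all genes tested. Knock-in positive and WT cells were in one table and the Activin A and SB431542 groups in the other, and all tests were made within a table. Levels set across the tables are a description, because the tables were deposited separately. The knock-in positive libraries carry the names of 3 lines that the study describes as separately transfected. For the libraries of the other 3 groups the labels do not tell separate cultures from repeats of one, so there p-values measure the spread between these libraries, which may be technical. In bulk RNA, fewer cells of a type and less RNA per cell cannot be told apart.

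The libraries were alike in the number of genes above 0, from 15339 to 15827. Their read depth is unknown. Relative depth was judged from the spacing of low values, within each table. Relative to knock-in library 1, it was 0.566 to 0.633 in WT cells and 0.732 to 1 in knock-in positive cells. Relative to Activin A library 1, it was 0.973 to 1.14 over the Activin A and SB431542 libraries. These values cannot be compared between the tables. Mitochondrial genes took 14.0% to 16.4% of FPKM in WT cells and 9.43% to 11.5% in the other 3 groups. The part of these differences in the results below was not tested. Of the pluripotency genes, SOX2 stood between 39.1 and 71.5 FPKM over the 12 libraries, and ZFP42 was listed at 0 in each. In the comparison of knock-in positive with WT cells, 2 of 9 tested pluripotency genes were called higher, NANOG and the RNA-binding protein gene LIN28A (log2 fold change 2.08, limma adjusted p = 0.0184), 0 were called lower and 3 had lower means. POU5F1, which encodes OCT4, and UTF1 were on the list of 15 but were not matched by symbol and are not in this count. Between Activin A and SB431542, 1 of 10 was called higher, NANOG, and with the replicate number as a block LIN28A was also called, lower with Activin A (-1.55, limma adjusted p = 0.0150). As a check of the groups, NANOG was called higher in knock-in positive than in WT cells (log2 fold change 2.06, limma adjusted p = 0.0250) and higher with Activin A than with SB431542 (3.18, adjusted p = 0.0424). Of the SMAD target genes, LEFTY2 (1.07) and SMAD7 (1.80) were also called higher with Activin A, whereas ID1 (1.31, limma adjusted p = 0.323) was not. These checks had little margin: over the 6 fits per comparison that each left out 1 library, NANOG kept its call in 1 fit against WT and in 1 between Activin A and SB431542, and SMAD7 and LEFTY2 in 0, with LEFTY2 below the filter in 3 of the 6. The log2 fold change of NANOG in these fits was 1.71 to 2.42 against WT and 2.99 to 3.56 between Activin A and SB431542, and that of SMAD7 was 1.71 to 1.90.

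The most variable of the 10 genes were the YAP targets CCN1 and CCN2, followed by AJUBA, AMOTL2 and LATS2. The highest group mean of CCN1 was 13.4 times the lowest, and this ratio was 8.998 for CCN2, 4.44 for AJUBA, 3.70 for AMOTL2 and 3.01 for LATS2. The order within these 5 turned with single WT libraries: without WT library 1 the ratio was 30.04 for CCN1, and AMOTL2 (5.46) passed AJUBA (3.92), and without WT library 3 CCN2 (11.13) passed CCN1 (10.07). For YAP1, TEAD1, AXL and LATS1 it lay between 1.09 and 1.27. For ANKRD1, whose values lay near 0, it was 2.53, the ratio of SB431542 to knock-in cells. Without SB431542 library 2 that ratio was 1.3, and WT cells had the highest mean, 2.32 times that of knock-in cells. Without WT library 1 the direction turned, and the ANKRD1 mean of knock-in cells was 2.235 times that of WT cells. The mRNA of the effector YAP1 and of its partner TEAD1 therefore varied little while that of the targets CCN1 and CCN2 varied widely. For CCN1, CCN2, AMOTL2, LATS2 and AJUBA, WT cells had the lowest group mean and did not overlap the next group. Except for AMOTL2, that next group was in the other table. The share of all genes with WT cells lowest and apart was not computed, so this is a description.

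**Figure D1:**
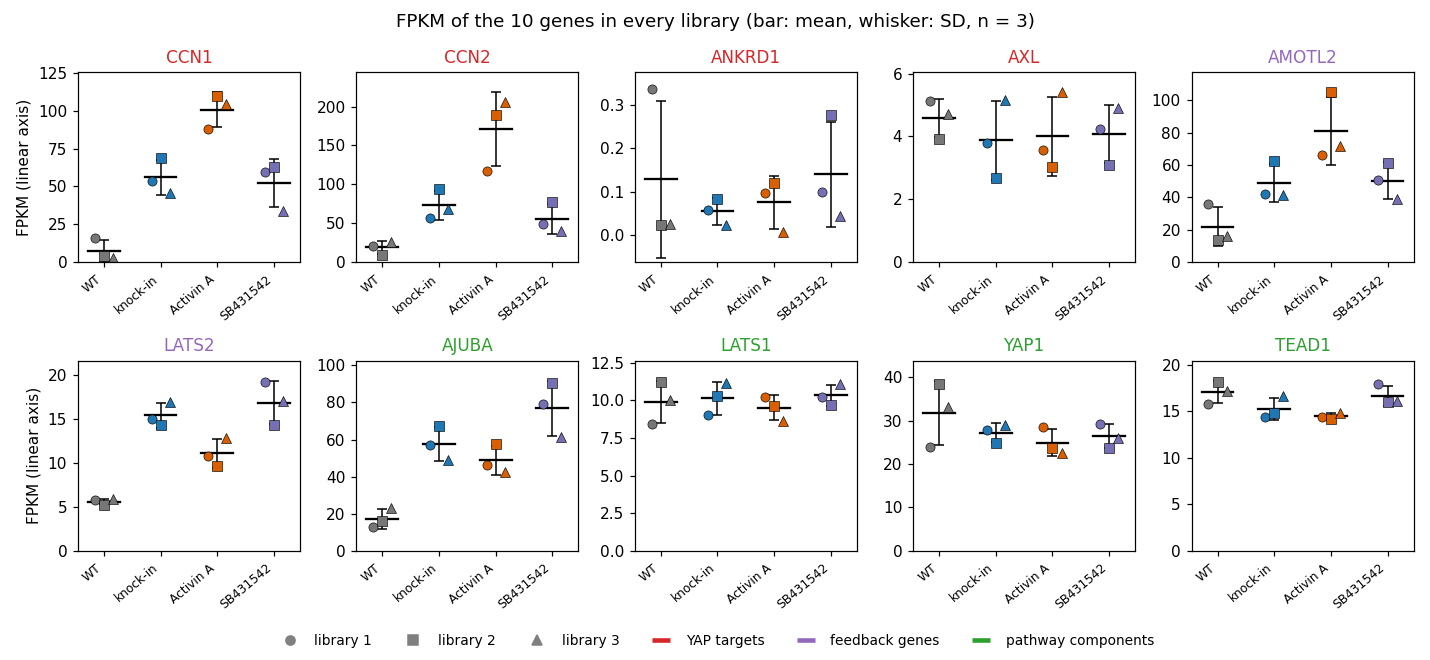
FPKM on linear axes for each of the 10 genes in the 12 libraries, in the WT, knock-in, Activin A and SB431542 groups; symbols mark library numbers, bars the mean and whiskers the SD (n = 3). CCN1 ran from 2.54 to 109.8 FPKM and CCN2 from 9.55 to 207, LATS1 stayed between 8.42 and 11.2, and ANKRD1 did not exceed 0.336.

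The comparison of knock-in positive with WT cells asked how cells that express the NANOG reporter differ from the cells they were made from. CCN1, CCN2, LATS2 and AJUBA were higher in knock-in positive cells, by 2.75 to 7.45 times on the means of FPKM, whereas YAP1, TEAD1, LATS1 and the target AXL were not called. Of the 10 genes, 9 passed the filter on low values, and 4 of these 9 were called, all of them higher. Among all 14014 genes tested, 2.31% were called, 1.61% higher and 0.706% lower. The 3 values of a group lay wholly above those of the other in 5 of the 9 genes, against 35.7% of all genes tested with values wholly above or below.

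CCN1, formerly CYR61, encodes a secreted matrix-associated protein that binds integrins, and lies on chromosome 4 (chr4:130392404-130395179; all positions here are those of RefSeq's annotation of Sscrofa11.1). It stood at 53.6, 68.6 and 45.9 FPKM in knock-in positive cells and at 15.8, 4.16 and 2.54 FPKM in WT cells. The groups did not overlap, and WT library 1 was well above the other WT libraries. The log2 fold change was 3.06 ± 0.52 (SE, n = 3 per group; limma adjusted p = 0.0219), with a 95% interval from 1.85 to 4.27. Over the 6 fits that each left out 1 library, the log2 fold change was 2.59 to 3.72, lowest without WT library 3 and highest without WT library 1, where the ratio of mean FPKM went from 7.45 to 16.7. The call was lost when knock-in library 1, knock-in library 2 or WT library 2 was left out (log2 fold changes 3.08, 2.90 and 2.86, with limma adjusted p between 0.0611 and 0.0760).

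CCN2, formerly CTGF, encodes connective tissue growth factor (chr1:31674398-31677697). It stood at 56.6, 93.9 and 67.8 FPKM in knock-in positive cells and at 21.2, 9.55 and 26.3 FPKM in WT cells, again without overlap. Its log2 fold change was 1.96 ± 0.35 (SE, n = 3 per group; limma adjusted p = 0.0250). It lost its call in 4 of 6 fits, which were those without knock-in library 1, 2 or 3 and that without WT library 1, where the fold change was between 1.76 and 2.12 and the limma adjusted p between 0.0531 and 0.0819.

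Of the other YAP targets, AXL was tested and not called. AXL, a receptor tyrosine kinase (chr6:49245802-49277917), stood at 3.80, 2.66 and 5.18 FPKM in knock-in positive cells and at 5.13, 3.93 and 4.70 FPKM in WT cells. These values overlapped, and the log2 fold change was -0.22 with a 95% interval from -0.72 to 0.28 (limma adjusted p = 0.526). ANKRD1, an ankyrin-repeat protein best known from muscle (chr14:102603777-102612857), did not pass the filter of 0.1 FPKM in 3 or more of 6 libraries in either table and was not tested. Its highest value, 0.336 FPKM, was in WT library 1, and its values in the other 11 libraries were between 0.00713 and 0.277 FPKM.

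LATS2 and AMOTL2 are targets of YAP1 whose products act against it. LATS2, a kinase of YAP1 (chr11:1225523-1265970), stood at 15.0, 14.3 and 17.0 FPKM in knock-in positive cells and at 5.73, 5.25 and 5.85 FPKM in WT cells. Its libraries were close within each group, and the difference was many times their spread, with a log2 fold change of 1.31 ± 0.12 (SE, n = 3 per group; limma adjusted p = 0.00406). AMOTL2, an angiomotin that holds YAP1 at cell junctions (chr13:75490936-75507360), stood at 42.0, 62.2 and 41.7 FPKM in knock-in positive cells and at 35.96, 13.6 and 16.0026 FPKM in WT cells. It did not overlap between the groups but was not called (1.22 ± 0.34, limma adjusted p = 0.0729). WT library 1 was the high one here as for CCN1, and without it AMOTL2 was called (1.63, limma adjusted p = 0.0242).

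Of the components, AJUBA alone was called. AJUBA, a LIM protein that binds and restrains LATS kinases (chr7:76063009-76072884), stood at 57.0, 67.2 and 48.9 FPKM in knock-in positive cells and at 12.6, 16.2 and 23.1 FPKM in WT cells. Its log2 fold change was 1.71 ± 0.22 (SE, n = 3 per group; limma adjusted p = 0.0104). AJUBA and LATS2 kept their calls whichever of the 6 libraries was dropped, and the fold change was 1.52 to 1.93 for AJUBA and 1.25 to 1.36 for LATS2.

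LATS1, YAP1 and TEAD1 overlapped between knock-in positive and WT cells. LATS1, the other LATS kinase (chr1:16274955-16320980), stood at 9.004, 10.3 and 11.2 FPKM in knock-in positive cells and at 8.42, 11.2 and 10.1 FPKM in WT cells. YAP1, the coactivator that the LATS kinases phosphorylate (chr9:32811629-32924926), stood at 27.8, 24.8 and 29.1 FPKM against 23.8, 38.3 and 33.1 FPKM. TEAD1, a DNA-binding partner of YAP1 (chr2:46396490-46670619), stood at 14.4, 14.8 and 16.6 FPKM against 15.8, 18.2 and 17.2 FPKM. The 95% intervals of their log2 fold changes were -0.31 to 0.38 for LATS1, -0.60 to 0.21 for YAP1 and -0.42 to 0.11 for TEAD1, so a change as large as that of LATS2 lay outside each of them.

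The ratio of the LATS mRNAs differed with the group. LATS2 was below LATS1 in each WT library, at 0.577 ± 0.106 times its level (SD, n = 3), and above it in each knock-in library, at 1.53 ± 0.136 times. The ratio was 1.18 ± 0.269 with Activin A and 1.63 ± 0.216 with SB431542. The 3 groups of knock-in positive cells thus shared a ratio of about 1 or more, and no library of them fell to the highest WT ratio of 0.681.

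The comparison of Activin A with SB431542 asked how knock-in positive cells differ when Activin signalling is driven or blocked. No member was called: 0 of 9 in limma, while 0.0929% of 13999 genes were called, 0.0571% higher and 0.0357% lower. At an unadjusted p under 0.05 in limma were 6 of the 9, against 12.8% of all genes tested. Those 6, CCN1, CCN2, AMOTL2, LATS2, AJUBA and TEAD1, were also the genes whose groups did not overlap, as did not 20.0% of all genes tested. Libraries of the same number deviated together from their group means in this table, with correlations across genes of 0.400, 0.587 and 0.535, and the fit with the replicate number as a block called 1 member, CCN2. That fit called 0.707% of the genes.

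CCN1, CCN2 and AMOTL2 had higher means with Activin A. CCN2 stood at 117, 189 and 207 FPKM with Activin A and at 48.6, 77.2 and 40.5 FPKM with SB431542. Every Activin A library was above every SB431542 library, and the ratio between libraries of the same number was 2.40, 2.46 and 5.10. The log2 fold change was 1.62 ± 0.29 (SE, n = 3 per group; limma adjusted p = 0.126), and with the block it was called (± 0.23, limma adjusted p = 0.0445). Under the block the call was kept without the libraries numbered 3 (log2 fold change 1.27, limma adjusted p = 0.0217) and lost without those numbered 1 (1.80, 0.143) or 2 (1.79, 0.0903).

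CCN1 stood at 87.9, 109.8 and 104.5 FPKM with Activin A and at 59.4, 62.9 and 34.0 FPKM with SB431542. Its log2 fold change was 0.98 ± 0.23 (SE, n = 3 per group; limma adjusted p = 0.187, and 0.0810 with the block). AMOTL2 stood at 65.95, 104.9 and 71.6 FPKM with Activin A and at 50.8, 61.4 and 38.8 FPKM with SB431542. For AMOTL2 the log2 fold change was 0.67 ± 0.22 (limma adjusted p = 0.302, and 0.0523 with the block). Neither gene overlapped between the groups, so all 3 pairs of the same number had to be higher with Activin A. Neither difference passed the test.

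LATS2 and AJUBA lay the other way. LATS2 stood at 10.8, 9.63 and 12.9 FPKM with Activin A and at 19.2, 14.3 and 17.1 FPKM with SB431542. Its log2 fold change was -0.56 ± 0.14 (SE, n = 3 per group; limma adjusted p = 0.204, and 0.0581 with the block). AJUBA stood at 46.0, 57.7 and 42.7 FPKM with Activin A and at 79.2, 90.3 and 61.1 FPKM with SB431542, a log2 fold change of -0.64 ± 0.17 (limma adjusted p = 0.215). With the block the adjusted p of AJUBA in limma was 0.0266, under 0.05 as it was for 2.88% of all genes, but its fold change was too small for a call. The groups did not overlap for either gene, so all 3 pairs of the same number had to be lower with Activin A.

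**Figure D2:**
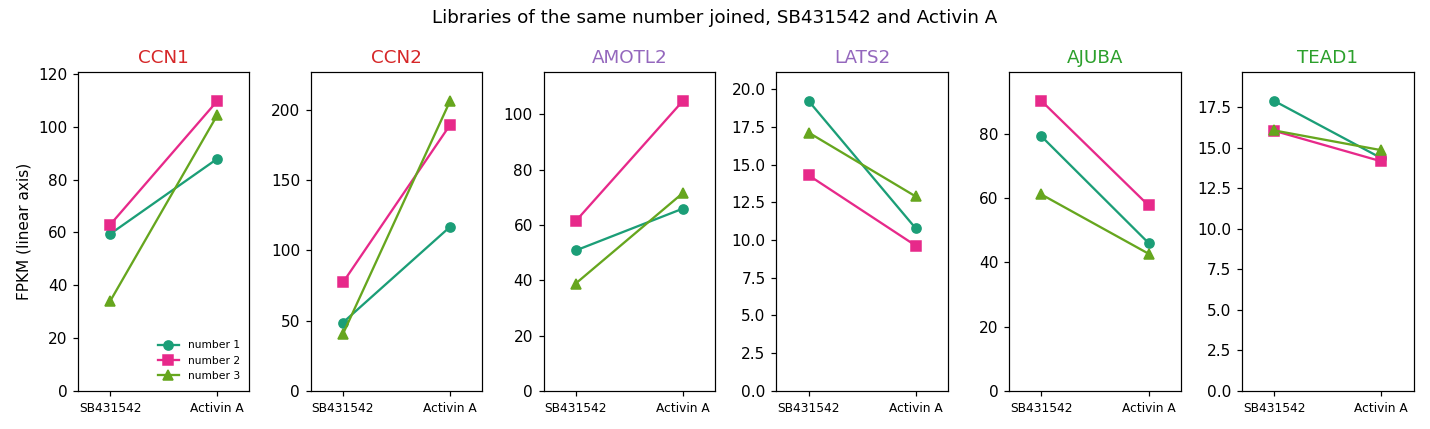
FPKM on linear axes in the SB431542 and Activin A groups for the 6 genes whose values did not overlap between them; lines join libraries of the same number. All 3 lines end higher at Activin A for CCN1, CCN2 and AMOTL2 and lower for LATS2, AJUBA and TEAD1. This follows from the lack of overlap.

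The remaining members differed little between Activin A and SB431542. TEAD1 was at 14.4, 14.2 and 14.9 FPKM with Activin A and at 17.9, 16.1 and 16.1 FPKM with SB431542, a log2 fold change of -0.19 ± 0.080 (SE, n = 3 per group; limma adjusted p = 0.389, and ± 0.070 with adjusted p = 0.193 with the block). YAP1 was at 28.6, 23.6 and 22.6 FPKM against 29.3, 23.7 and 26.1 FPKM. LATS1 was at 10.3, 9.65 and 8.66 FPKM against 10.2, 9.71 and 11.095 FPKM. The groups overlapped for YAP1 and LATS1, with 95% intervals of the log2 fold change from -0.36 to 0.20 and from -0.35 to 0.13. AXL was at 3.56, 3.04 and 5.41 FPKM against 4.24, 3.09 and 4.91 FPKM, also overlapping.

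Set side by side, the genes that stood higher in knock-in positive than in WT cells did not lie on the same side of 0 in the other comparison. CCN1, CCN2 and AMOTL2 had log2 fold changes of 3.06, 1.96 and 1.22 against WT, and of 0.98, 1.62 and 0.67 for Activin A against SB431542. LATS2 and AJUBA had 1.31 and 1.71 against WT, and -0.56 and -0.64 for Activin A against SB431542. The contrasts are in different tables and ask different questions, and their difference was not tested.

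**Figure D3:**
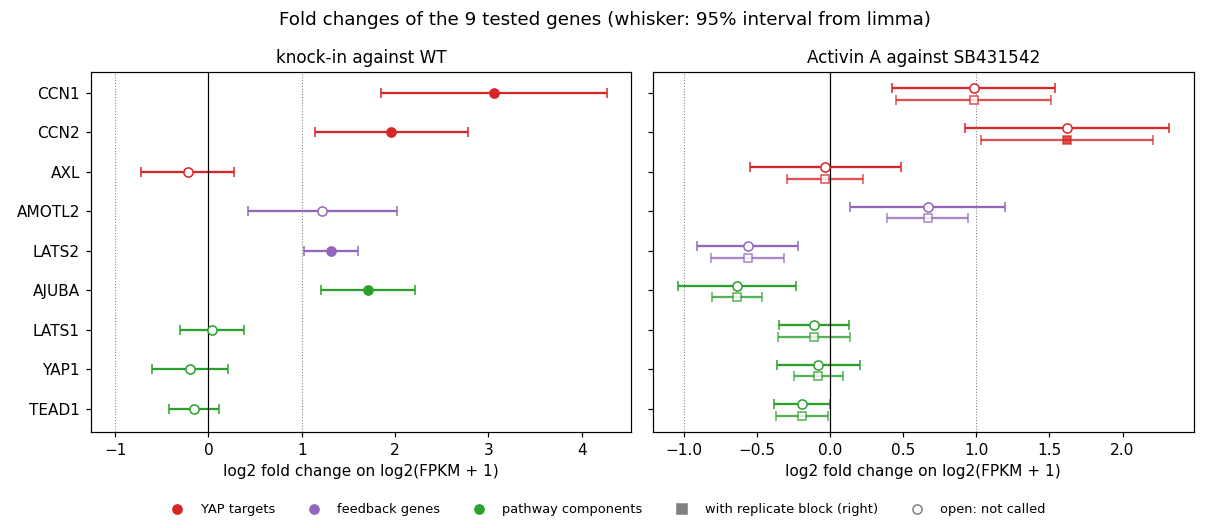
Log2 fold changes on log2(FPKM + 1) of the 9 tested genes, knock-in positive against WT on the left and Activin A against SB431542 on the right; whiskers are 95% intervals from limma, squares the fit with the replicate block, and filled symbols called genes. On the left CCN1 (3.06), CCN2 (1.96), LATS2 (1.31) and AJUBA (1.71) are called; on the right only CCN2 with the block (1.62).

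The order of group means comes from the same values, so within each table it had to repeat this split. For CCN1 and CCN2 it was Activin A, knock-in, SB431542 and WT, in which only the knock-in and SB431542 groups overlapped. For AMOTL2 it was Activin A, SB431542, knock-in and WT, with overlap only of the SB431542 and knock-in groups. For LATS2 and AJUBA it was SB431542, knock-in, Activin A and WT. SB431542 and knock-in cells overlapped for both of these genes, and knock-in cells and Activin A for AJUBA only. The ratio of CCN2 to LATS2, a target to a kinase of the pathway, was 10.8, 19.7 and 16.02 with Activin A and 2.53, 5.39 and 2.36 with SB431542, and 3.34 ± 1.37 in WT and 4.77 ± 1.55 in knock-in positive cells (SD, n = 3).

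Library 2 was the highest of its group for AJUBA, AMOTL2 and CCN1 in the knock-in, Activin A and SB431542 groups alike, and library 3 was the highest for AXL. The same number was thus highest in these 3 groups for 4 of the 9 members that passed the filter in both tables, close to the 38.0% of all 13696 such genes. Library 2 was also the highest in the 3 groups for ANKRD1, whose values lay near 0. In WT cells library 1 was the highest for 4 genes, CCN1, AMOTL2, ANKRD1 and AXL, and the lowest for 4 others, AJUBA, LATS1, YAP1 and TEAD1.

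Other genes of the pathway were taken from lists of further YAP and TAZ targets, upstream components, and effectors with their cofactors. Between knock-in positive and WT cells, 4 of 18 tested further targets were called higher and 0 lower, and the median log2 fold change of the 18 was 0.51, against a median of -0.0014 over all genes. At an unadjusted p under 0.05 in limma, 10 of them were higher and 2 lower. Of all genes tested, 28.6% were at such a p, 16.1% higher and 12.5% lower. By adjusted p alone, which 7.22% of all genes passed, 6 of the 18 were higher and 0 lower. THBS1, which encodes the matrix protein thrombospondin, rose from 3.999 ± 0.589 to 63.9 ± 25.3 FPKM (SD, n = 3), a log2 fold change of 3.64. F3, the tissue factor that starts coagulation, rose by 3.30, the kinase gene NUAK2 by 1.32 and CCDC80, a matrix protein gene, by 1.29 (limma adjusted p between 0.00933 and 0.0361 for these 3).

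For the upstream components, log2 fold changes were between -0.47 and 0.95. Of 24 tested, which include the MST kinases STK3 and STK4, SAV1, NF2 and MOB1A, 0 were called in limma in either direction, with 3 higher and 4 lower at an unadjusted p under 0.05, a share near that of all genes, and their median log2 fold change was -0.07. By adjusted p alone, WTIP, an AJUBA relative, was higher (0.95, limma adjusted p = 0.0388) and MOB1A, a LATS activator, lower (-0.47, 0.0434). Of 6 tested effectors and cofactors, 1 was called higher, TEAD4, at 12.7 ± 2.49 FPKM in knock-in positive and 5.43 ± 0.358 FPKM in WT cells (log2 fold change 1.07, limma adjusted p = 0.0173). By adjusted p alone TEAD3 was higher as well (0.51, limma adjusted p = 0.0491), and 3 of the 6 were higher and 0 lower at an unadjusted p under 0.05. Apart from TEAD4 the log2 fold changes were between 0.16 and 0.55, and WWTR1, which encodes TAZ, stood at 0.44 (limma adjusted p = 0.201).

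Between Activin A and SB431542, limma called 0 genes in any of these 3 lists, and the medians were 0.08 for further targets, -0.07 for upstream components and -0.29 for effectors, against -0.0040 over all genes. At an unadjusted p under 0.05, 4 further targets were higher and 4 lower, 2 upstream components higher and 4 lower, and 0 effectors higher and 3 lower, where 6.07% of all genes were higher and 6.76% lower. With the replicate block, 1 further target was called higher, FJX1 (1.49 ± 0.089 SE, limma adjusted p = 0.0138), and 1 lower, TGFB2 (-1.09 ± 0.13 SE, limma adjusted p = 0.0321), and 0 of the upstream components and effectors were called. FJX1 encodes a secreted protein related to Drosophila four-jointed, and TGFB2 a TGF-β ligand. By the blocked adjusted p alone, which 2.88% of all genes passed, 3 further targets were higher and 4 lower, 0 upstream components higher and 1 lower, and 0 effectors higher and 2 lower. Those effectors were TEAD4 (-0.77, limma adjusted p = 0.0453) and WWTR1 (-0.50, 0.0449). TEAD4 stood at 8.73 ± 1.40 FPKM with Activin A and 15.8 ± 3.998 FPKM with SB431542 (SD, n = 3), so like LATS2 and AJUBA it was lowest in WT cells and had a higher mean with SB431542 than with Activin A.

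**Figure D4:**
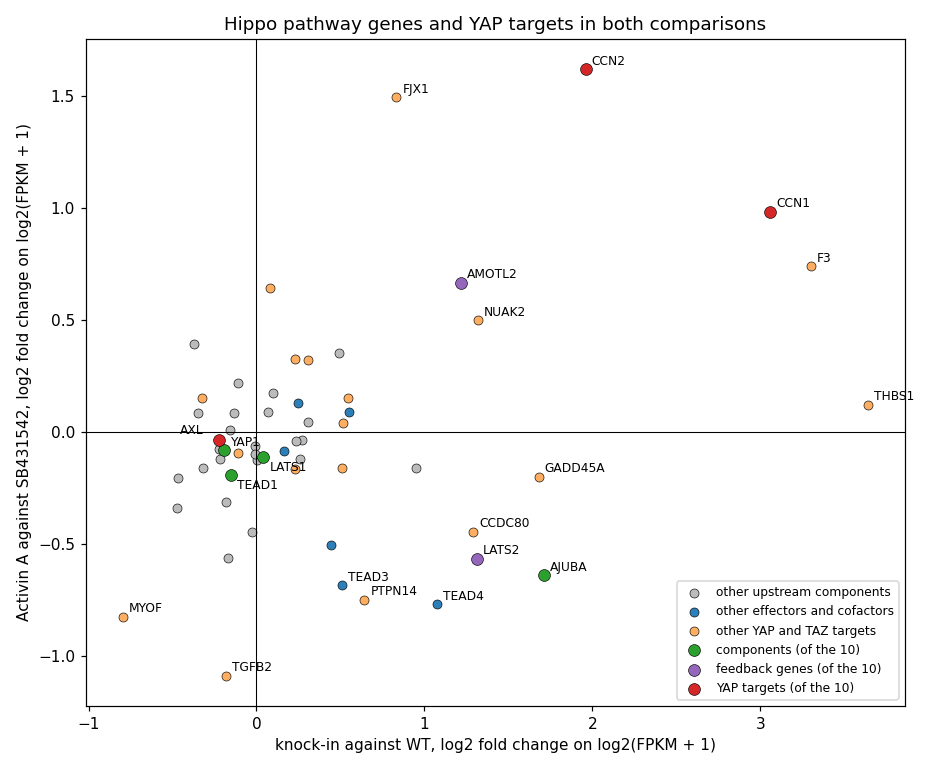
Log2 fold changes on log2(FPKM + 1) of the tested pathway genes and YAP targets, knock-in positive against WT on the horizontal axis and Activin A against SB431542 on the vertical axis; names are given for the 9 tested members and for other genes at 1 or beyond horizontally or 0.65 or beyond vertically. CCN1 and CCN2 lie at the upper right, LATS2 and AJUBA at the lower right, and most upstream components near 0 on both axes.

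Markers of other cell types also differed between knock-in positive and WT cells. Of 10 tested pericyte markers, 4 passed as higher with the knock-in: TAGLN (4.21), CNN1 (2.75), ACTA2 (2.61) and PDGFRB (1.64), of which the first 3 are contractile genes that smooth muscle also expresses. The summed FPKM of the 12 listed pericyte markers was 360.1 to 519 in knock-in positive and 45.8 to 56.7 in WT cells. Of 7 tested fibroblast and feeder markers 1 was called higher, DCN (1.49), while COL1A1 (-0.39) and PDGFRA (-0.16) had lower means, and at an unadjusted p under 0.05 in limma 4 were higher and 1, COL1A1, lower. The sums over the list were 27.7 to 51.9 and 10.7 to 18.7 FPKM, and the fibroblast genes DPT and FAP were listed at 0 in every library. Of 7 tested trophectoderm markers 3 were called higher, KRT8 (4.13), TFAP2A (1.56) and TEAD4, which is also in the effector list. All 7 markers had higher means, and 6 were higher at an unadjusted p under 0.05 in limma, against 16.1% of all genes tested. Their list summed to 87.6 to 528 FPKM in knock-in positive and 18.02 to 25.3 FPKM in WT cells, and CDX2, a defining trophectoderm gene, was listed at 0 in every library. The part of these markers in the higher CCN1, CCN2, LATS2 and AJUBA was not tested.

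Between Activin A and SB431542 the fibroblast list summed to 50.3 to 75.4 and to 15.7 to 23.8 FPKM, the pericyte list to 340.8 to 458 and to 365 to 484, and the trophectoderm list to 92.6 to 482 and to 133 to 961. The fibroblast sums did not overlap and were higher with Activin A, as were the values of CCN1, CCN2 and AMOTL2, but the markers did not move together: COL1A2, COL3A1, DCN and THY1 had higher means, and COL1A1 (-0.10), FBN1 (-0.02) and PDGFRA (-0.01) had log2 fold changes below 0. Limma called 0 of 7 fibroblast markers, 3 of which were higher at an unadjusted p under 0.05, and with the block 2 were called higher, COL1A2 (1.59) and COL3A1 (3.08). Among pericyte markers ACTA2 was called lower with Activin A (-1.13, limma adjusted p = 0.0346). Of trophectoderm markers 0 of 7 were called, with 2 higher and 1 lower at an unadjusted p under 0.05, while the block called GATA2 (2.28) and TFAP2C (1.51) higher and KRT8 (-1.21) lower. The part of these markers in the differences of CCN2 and AJUBA was not tested.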

How the data were processed

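Expression was analysed from tables of FPKM per gene that the authors deposited, with 24358 genes and 12 libraries. The authors used Trim Galore for trimming and HISAT2 2.0.4 for alignment to the pig build Ssc11.1, estimated FPKM with StringTie 1.3.3 from an Ensembl annotation, and tested featureCounts 1.6.4 counts with DESeq2. Versions are those of the submitters' processing notes. Because the deposited values were FPKM, a count test could not be run, and depth is unknown.

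The filter kept genes that reached 0.1 FPKM in a minimum of 3 libraries among the 6 of a table. The deposited FPKM were converted here to log2(FPKM + 1), on which limma 3.58.1 (R 4.3.3) was run with a variance trend within each table, with two-sided Benjamini-Hochberg adjusted p over all genes tested. Calls needed a log2 fold change of 1 or more in size with an adjusted p no higher than 0.05. For single members an exact two-sided permutation test of 3 against 3 libraries cannot go below p = 0.1, so it is not quoted. The fit was tested on simulated data.

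Library numbers come from the sample labels. Deviations from the group means of same-numbered libraries correlated at 0.400, 0.587 and 0.535 in the Activin A and SB431542 table, every one over 0.1, so these numbers were taken to pair the libraries. Blocked values are given there where they change a call, and for the members whose groups did not overlap.

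The members and lists were chosen with earlier results of these data known. Genes named are all 10 members, up to 5 called genes per list, direction and comparison, the 5 genes most like CCN1 and CCN2, of which 1 is not reported here, and NANOG, LEFTY2, SMAD7 and ID1. Those named by adjusted p alone, SOX2, ZFP42 and the markers at 0 were named after their values were seen. Symbols came from the tables for 17451 genes and from a name table for 965, and 5942 had none. The older names CYR61 and CTGF were used to find CCN1 and CCN2 in RefSeq. Alternatives were a pseudocount of 0.1, filters of 0 and 1 FPKM, scaling to TPM or by median ratios, no variance trend, the block, calls by adjusted p alone and each library left out, and, added after the data were seen, the block without each number. Plots were made in Python 3.11.15 with matplotlib 3.10.9.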

Additional observations from a re-analysis of the deposited data

How the results depend on the processing

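LATS2 and AJUBA were called in knock-in positive against WT cells under every alternative run. CCN2 was not called there without the filter (limma adjusted p = 0.0536). The number of members called was 2 to 4 when a library was left out, with 2 without knock-in library 1 or knock-in library 2. Over all genes, calls higher and lower numbered 225 and 99, and became 346 and 192 with a pseudocount of 0.1, and 684 and 328 by adjusted p alone. Lower calls were 42 without the filter and 156 with TPM. Leaving out a library gave 117 to 303 higher and 28 to 143 lower.

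In the Activin A and SB431542 comparison, calls of 8 higher and 5 lower became 3 and 2 without the filter, 2 and 3 at a filter of 1 FPKM, and higher calls became 3 without the variance trend and 13 by adjusted p alone. Leaving out a library gave 0 to 4 higher, 0 to 1 lower and 0 members.

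With the replicate block, the Activin A and SB431542 libraries gave 73 higher and 26 lower calls and 1 member, CCN2, and without a number the block called 0 to 1 members. Between knock-in positive and WT cells the numbers did not pair the libraries (correlations -0.02, 0.0087 and 0.094). There the block gave 172 higher and 60 lower calls, and CCN2 was not called (limma adjusted p = 0.0594). The block changed no other call of a member.

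Small fold changes changed sign when libraries were left out. LATS1 against WT became -0.03 without knock-in library 3 and -0.064 without WT library 1, with a range over such fits from -0.064 to 0.12. AXL with Activin A became 0.02, 0.11 and 0.08 without Activin A library 1, Activin A library 2 and SB431542 library 3, and 0.049 with the block and without the libraries numbered 1. Leaving out libraries without the block gave -0.23 to 0.11 for AXL. The cause was not tested. Of the 5 genes most like CCN1 and CCN2 by Pearson correlation, 2 were among the top 5 by Spearman correlation.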

Other observations

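Genes whose levels were among the 5 most like the mean of CCN1 and CCN2 over the 12 libraries, by Pearson correlation of log2(FPKM + 1) among 12393 genes, included PIM1 (r = 0.99), JUN (0.97), AMOTL2 (0.97) and SIK1 (0.96). The libraries fall into 4 groups from separately deposited tables, which these values share, so the correlations are a description. PIM1, a kinase gene that cytokine signalling induces, had mean levels of 11.8 FPKM in WT, 62.5 in knock-in positive, 126 in Activin A and 50.9 in SB431542 cells. JUN, an immediate early gene and a subunit of the AP-1 factor, had mean levels of 28.4, 121, 198 and 113 FPKM in the same order. SIK1, a salt-inducible kinase gene, had 2.37, 6.67, 10.8 and 6.72 FPKM. AMOTL2, a member itself, was the only one of the 5 that is in the list of Hippo pathway and YAP target genes.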
